A study of Mus musculus with 6 samples.

Results

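The genes described here are 8 markers of the inhibitory interneurons of the cerebellum, out of 24537 genes listed in each library: Pvalb, Gad1, Gad2, Slc32a1, Slc6a5, Kit, Tfap2b and Lgi2. They were chosen by name, as markers of basket, stellate and Golgi cells or of transmission by GABA or glycine, and all 8 were found. RNA-seq was done on cerebellum of male mice aged 6 weeks, and the values are FPKM, which divide the fragments of a gene by its exon length and by the size of the library. There were 2 groups. The first held 3 libraries from mice heterozygous for a Reln null allele (HET), whose strain is given as Orl/BalbC. The second held 3 libraries from wild-type mice (WT), whose strain is given as C57BL/6. Genotype and strain cannot be told apart in this design, and no label ties a library to an animal of its own. P-values therefore measure only the spread between these libraries, which may be technical.

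Reln, the targeted gene, was lower in the HET libraries, at 0.531, 0.509 and 0.580 FPKM in HET replicates 1, 2 and 3, against 0.834, 0.771 and 0.940 FPKM in WT replicates 1, 2 and 3, with no overlap. Approximate depths, from the steps between low FPKM values, were 22.7 to 27.1 M reads in HET and 26.6 to 28.5 M reads in WT libraries. They rest on few genes: 35 to 47 of the 1903 to 1983 searched per library fell on the steps. The median over the depths tried was 11 or 12. As a whole, WT replicate 2 had low values: it was the lowest library for 78.4% of the 6358 genes tested, and HET replicate 2 was the highest for 56.3%. A second set of values was therefore computed by median-of-ratios scaling, which divides each library by its typical ratio to the others, 0.990 to 1.13 in HET and 0.838 to 1.09 in WT libraries. Choroid plexus markers summed to 6.07 to 176 FPKM in HET and 2.34 to 306 FPKM in WT libraries, a wide range within both groups, and their part in the results was not tested.

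Basket and stellate cells lie in the molecular layer of the cerebellar cortex and inhibit Purkinje cells, while Golgi cells lie in the granular layer and inhibit granule cells. All of them release GABA, and many Golgi cells release glycine as well. GABA is made from glutamate by the glutamate decarboxylases, loaded into vesicles by a transporter that also carries glycine, and cleared by transporters in the plasma membrane. Purkinje cells are GABAergic too and express Gad1, Gad2, Slc32a1 and Pvalb, so these genes do not stand for interneurons alone in whole tissue. In such tissue fewer cells of a type and less RNA per cell cannot be told apart.

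Tfap2b encodes a factor of the AP-2 family, which binds the palindrome GCCNNNGGC, so the promoters of the members were searched for it. The windows were taken from RefSeq (GRCm38.p6, the assembly also called mm10) and run from 250 bases before to 50 bases after the most upstream start site of each gene. All 8 genes matched. The palindrome reads the same on both strands, and 4 of the 8 windows held it, against 16.5% of 27025 windows of the same length. Counted from the start site, with negative positions before it, the first base of the match was at -81 in Pvalb, -242 and -121 in Gad2, -134 in Kit and -89 in Lgi2. The 4 windows with a match are shown, in lower case with the palindrome in capitals, 5′ to 3′ on the strand of the gene: Pvalb at chr15:78206351-78206650 (minus strand), Gad2 at chr2:22622077-22622376 (plus strand), Kit at chr5:75574737-75575036 (plus strand) and Lgi2 at chr5:52566257-52566556 (minus strand).
Pvalb: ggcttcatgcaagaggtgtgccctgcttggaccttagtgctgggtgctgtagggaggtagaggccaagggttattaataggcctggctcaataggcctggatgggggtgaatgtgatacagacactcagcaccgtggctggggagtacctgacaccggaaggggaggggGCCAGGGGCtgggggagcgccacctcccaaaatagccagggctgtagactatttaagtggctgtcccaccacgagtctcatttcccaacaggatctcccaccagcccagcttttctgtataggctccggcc
Gad2: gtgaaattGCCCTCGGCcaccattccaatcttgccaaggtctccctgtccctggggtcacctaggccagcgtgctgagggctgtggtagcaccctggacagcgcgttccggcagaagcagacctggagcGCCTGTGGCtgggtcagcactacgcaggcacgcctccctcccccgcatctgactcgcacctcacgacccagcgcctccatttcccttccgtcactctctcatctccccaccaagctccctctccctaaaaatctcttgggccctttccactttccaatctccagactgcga
Kit: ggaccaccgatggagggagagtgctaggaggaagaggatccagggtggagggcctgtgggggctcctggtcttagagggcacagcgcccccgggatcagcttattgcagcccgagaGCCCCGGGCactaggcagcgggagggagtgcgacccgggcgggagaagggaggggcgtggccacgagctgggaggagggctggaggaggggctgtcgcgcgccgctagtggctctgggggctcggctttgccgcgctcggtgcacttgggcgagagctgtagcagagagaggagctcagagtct
Lgi2: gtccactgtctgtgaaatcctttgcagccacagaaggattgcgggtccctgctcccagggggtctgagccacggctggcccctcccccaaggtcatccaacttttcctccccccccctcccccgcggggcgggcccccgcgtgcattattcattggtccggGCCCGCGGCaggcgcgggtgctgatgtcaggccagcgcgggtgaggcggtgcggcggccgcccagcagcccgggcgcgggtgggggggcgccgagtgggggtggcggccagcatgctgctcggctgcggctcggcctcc
The windows of Gad1, Slc32a1, Slc6a5 and Tfap2b itself did not hold these letters. The E-box CAGCTG, also read the same on both strands, was in 0 of the 8 windows and in 16.1% of all windows. Other letters searched on both strands lay near the share of all windows. TATAAA was in 1 of the 8 and in 14.2% of all, GGGCGG in 3 and 35.9%, and CANNTG in 6 and 72.1%. A match in letters is a description and does not show binding. The share of G and C was 48.3% in the window of Tfap2b and 73.3% in that of Lgi2, the ends of the range among the members, against a median of 52.7% over all windows. The other windows with the palindrome held 58.3% (Pvalb), 61.3% (Gad2) and 69.0% (Kit), and those without it 60.0% (Gad1), 63.3% (Slc32a1) and 49.7% (Slc6a5). All windows are thus not a background matched to the members in G and C.

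Levels of the 8 genes spanned a wide range. Over the 6 libraries, in FPKM and so per length, Pvalb averaged 42.7, Slc32a1 9.85, Gad1 9.79, Kit 1.64, Gad2 1.45, Tfap2b 1.09 and Slc6a5 0.0884, and Lgi2 averaged 2.70 over the 5 libraries in which its value is known. Pvalb exceeded the next gene 4.33-fold, and no library of Pvalb came near any library of Slc32a1. Slc32a1 and Gad1 overlapped in level, each being the higher in 3 of 6 libraries. Gad1 lay above Lgi2, and Lgi2 above Kit, in all 5 libraries compared, with no overlap. Kit lay above Gad2, and Gad2 above Tfap2b, in 6 of 6 libraries, although their ranges over the libraries overlapped. Slc6a5 was last by a factor of 12.3.

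Between HET and WT cerebellum none of the 7 members fitted in limma changed past the test. Slc6a5 had only the exact permutation test, which cannot reach 0.05 with these libraries. Of the 6 members in the fit over all genes, 0 passed an adjusted p of 0.05 in limma and 0 had an unadjusted p under 0.05, where 0.0786% and 3.33% of the 6358 genes did. In none of the 8 were the groups apart, as they were for 5.55% of the genes tested. The mean of log2(FPKM + 1) was higher in HET for 7 of the 8, with 83.1% of all genes tested on that side. The exception was Lgi2, which is counted here without HET replicate 2, and which was higher in HET at both bounds of that library. After scaling, again with Lgi2 lacking that library, the mean was higher in HET for 5 of the 8, against 57.1% of all genes. The median log2 difference of the 6 members was 0.10, beside 0.083 over all genes tested, and 0.028 beside 0.013 after scaling. The smallest two-sided exact permutation p that 3 against 3 libraries allow is 0.1.

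Gad1 and Gad2 encode the glutamate decarboxylases, of which Gad1 makes most of the GABA of the brain and Gad2 is tied to the synaptic vesicle pool. Gad1 (ENSMUSG00000070880, chromosome 2, 70553072 to 70602014, plus strand, GENCODE M21 on GRCm38) had 9.67, 11.1 and 9.95 FPKM in HET replicates 1, 2 and 3, against 10.5, 7.43 and 10.04 FPKM in WT replicates 1, 2 and 3. WT replicate 2 was the lowest library and the groups overlapped. The log2 difference, HET minus WT on log2(FPKM + 1), was 0.13 (SE 0.15, limma adjusted p = 0.899), and it was 0.047 after scaling, with a 95% interval of -0.095 to 0.19. Gad2 (ENSMUSG00000026787, chromosome 2, 22622205 to 22693874, plus strand) had 1.32, 1.61 and 1.59 FPKM in HET replicates 1, 2 and 3, against 1.55, 1.12 and 1.53 FPKM in WT replicates 1, 2 and 3. HET replicate 1 and WT replicate 2 lay below the other 4 libraries. Its log2 difference was 0.064 (SE 0.10, limma adjusted p = 0.899), and 0.0092 after scaling (95% interval -0.12 to 0.14). The antisense gene Gad1os overlaps Gad1, and without a stated strand setting of the counting, reads from the opposite strand may be included.

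Slc32a1 encodes the vesicular transporter that loads both GABA and glycine. Slc32a1 (ENSMUSG00000037771, chromosome 2, 158610767 to 158615748, plus strand, overlapped by the antisense gene Gm14205) had 9.56, 11.8 and 9.93 FPKM in HET replicates 1, 2 and 3, against 10.1, 7.59 and 10.1 FPKM in WT replicates 1, 2 and 3. HET replicate 2 was the highest library and WT replicate 2 the lowest, with the other 4 close together. The log2 difference was 0.16 (SE 0.15, limma adjusted p = 0.899), and 0.067 after scaling (95% interval -0.078 to 0.21). Slc6a5 encodes the plasma membrane glycine transporter that supplies glycinergic terminals, in the cerebellum those of Golgi cells and of some neurons of the cerebellar nuclei. Slc6a5 (ENSMUSG00000039728, chromosome 7, 49910146 to 49963856, plus strand) had 0.0736, 0.110 and 0.0941 FPKM in HET replicates 1, 2 and 3, against 0.0902, 0.0628 and 0.1002 FPKM in WT replicates 1, 2 and 3. HET replicate 1 and WT replicate 2 were again the 2 lowest. At a transcript length of 2467 bases this was about 4.1 to 7.3 reads per library, a counting error of 37.0% to 49.3%. The values spread less than that, with an SD of 19.6% of the mean over the 6 libraries, so these read numbers may be too low. The means were 0.0924 ± 0.0180 FPKM in HET and 0.0844 ± 0.0194 FPKM in WT (SD, n = 3 each; two-sided exact permutation p = 0.6). Slc6a5 lay under the minimum mean of 1 FPKM and was not in the fit over all genes.

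Pvalb encodes parvalbumin, a calcium buffer of fast-spiking basket and stellate cells and of Purkinje cells. Pvalb (ENSMUSG00000005716, chromosome 15, 78191114 to 78206400, minus strand) had 44.6, 45.9 and 44.7 FPKM in HET replicates 1, 2 and 3, against 45.0, 36.6 and 39.3 FPKM in WT replicates 1, 2 and 3. The 3 HET libraries lay close together, WT replicate 1 lay among them, and WT replicates 2 and 3 lay below. The means were 45.0 ± 0.7 FPKM in HET and 40.3 ± 4.3 FPKM in WT (SD, n = 3 each). They differed by 0.16 on the log2 scale (SE 0.17, limma adjusted p = 0.899), and by 0.065 after scaling (95% interval -0.11 to 0.24). With about 952 to 1245 reads per library its counting error was 2.8% to 3.2%.

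Kit encodes a receptor tyrosine kinase carried by molecular layer interneurons, whose ligand, encoded by Kitl, is made by Purkinje cells. Kit (ENSMUSG00000005672, chromosome 5, 75574916 to 75656722, plus strand) had 1.47, 1.79 and 1.69 FPKM in HET replicates 1, 2 and 3, against 1.76, 1.28 and 1.82 FPKM in WT replicates 1, 2 and 3. The highest and the lowest library were both WT. The log2 difference was 0.020 (SE 0.10, limma adjusted p = 0.961) and turned to -0.038 after scaling (95% interval -0.17 to 0.097). Kit lies on the chromosome of Reln, 53.23 Mb away.

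Tfap2b encodes the AP-2 beta factor, which marks GABAergic neurons of the cerebellum from their formation onwards. Tfap2b (ENSMUSG00000025927, chromosome 1, 19208914 to 19238576, plus strand) had 1.07, 1.07 and 1.11 FPKM in HET replicates 1, 2 and 3, against 1.22, 0.885 and 1.16 FPKM in WT replicates 1, 2 and 3. The HET values lay between WT replicate 2 and the other 2 WT libraries. The log2 difference was 0.00047 (SE 0.088, limma adjusted p = 0.998), and -0.046 after scaling (95% interval -0.16 to 0.063).

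Lgi2 encodes a secreted protein of the leucine-rich glioma-inactivated family, whose members bind receptors of the ADAM family at synapses, and it is used as a Golgi cell marker. In the library of HET replicate 2 its value had been turned into a spreadsheet date, and what is left is the whole-number part, so that the value lies between 3 and 4 FPKM. The reading rests on the 40 such cells of that file, all 40 within 1 of the whole-number parts in the other libraries and 39 within the range of those parts. The exception was Lgi2 itself, read as 3 to 4 FPKM against 2.35 to 2.98 FPKM in the other libraries. Lgi2 (ENSMUSG00000039252, chromosome 5, 52533517 to 52566462, minus strand, overlapped by the antisense gene Gm43685) had 2.60 and 2.68 FPKM in HET replicates 1 and 3, against 2.98, 2.35 and 2.89 FPKM in WT replicates 1, 2 and 3. HET replicate 2 was thus the highest library, above the 2.98 FPKM of WT replicate 1. Without HET replicate 2 the log2 difference was -0.037 (SE 0.13, limma adjusted p = 0.947), and -0.060 after scaling (95% interval -0.19 to 0.069). With that library set at 3 FPKM the difference as deposited was 0.0088, and at 4 FPKM 0.12, both higher in HET and neither past the test, so the sign of the difference depends on whether that library is included. Lgi2 lies 30.189 Mb from Reln.

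**Figure D1:**
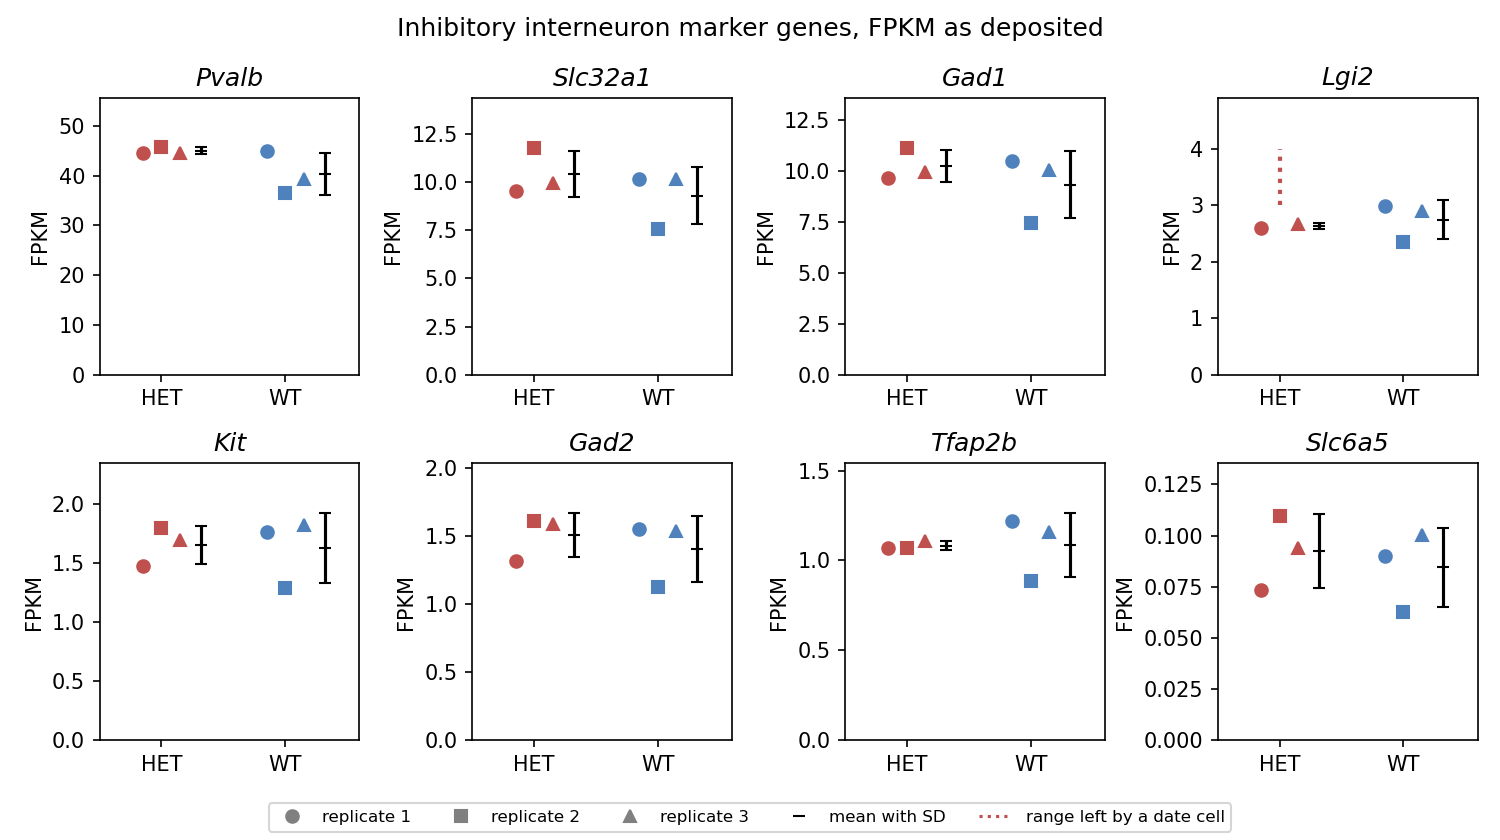
FPKM as deposited (vertical axis, from 0) of the 8 genes, with HET left of WT in each panel, a symbol for each replicate and the mean with its SD at the right of each group. WT replicate 2 is the lowest known library in every panel, the groups overlap in all 8, and the dotted line of Lgi2 spans 3 to 4 FPKM.

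The profile of the members over the libraries followed that of the whole table. WT replicate 2 was the lowest known library for all 8 genes, as it was for 78.4% of all genes tested. Without WT replicate 2, the log2 difference turned to -0.0048 for Gad1, -0.023 for Gad2, -0.0038 for Slc6a5, -0.077 for Kit and -0.071 for Tfap2b, and stayed above 0 for Pvalb and Slc32a1. After scaling, the lowest library was HET replicate 1 for Gad2, Slc6a5, Kit and, among its known libraries, Lgi2, WT replicate 2 for Gad1 and Slc32a1, HET replicate 2 for Tfap2b and WT replicate 3 for Pvalb. The highest scaled library was WT replicate 3 for Gad1, Slc6a5, Kit, Tfap2b and, among its known libraries, Lgi2.

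**Figure D2:**
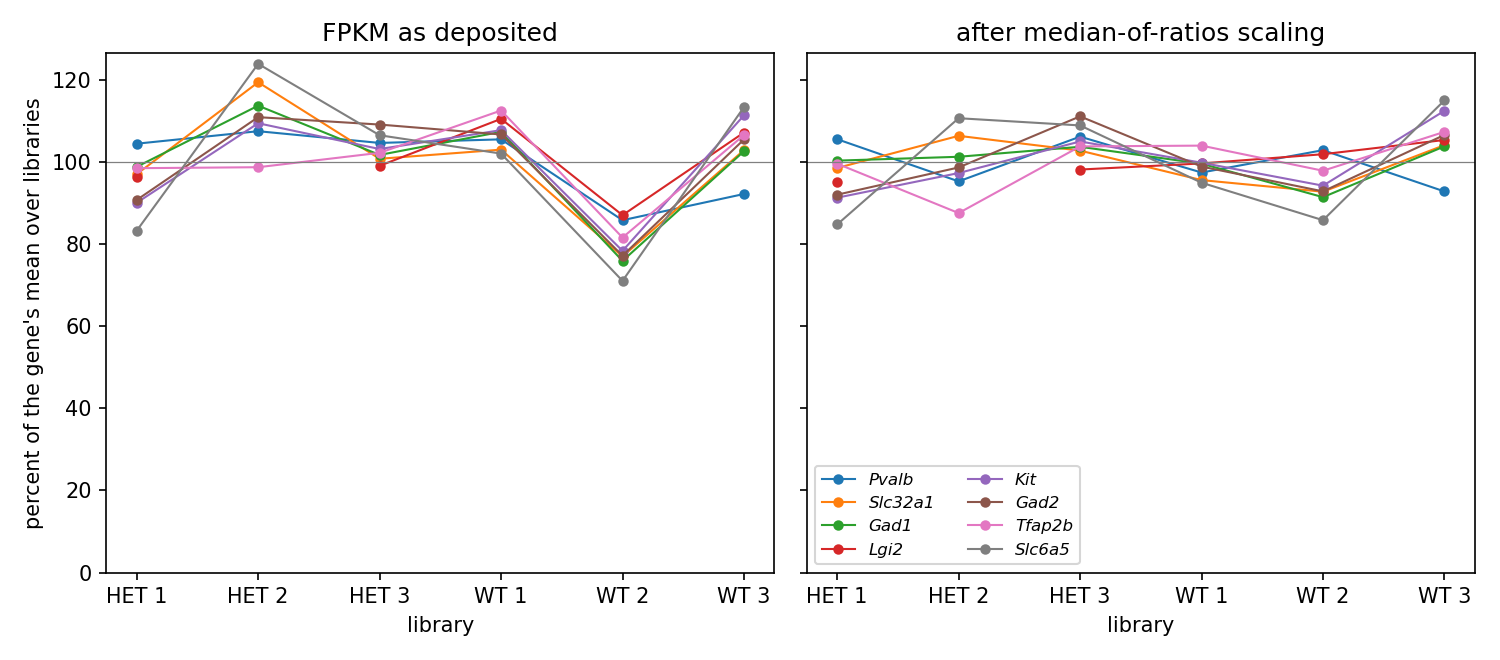
Each gene as a percentage of its own mean over the known libraries (vertical axis), by library (horizontal axis), as deposited at the left and after median-of-ratios scaling at the right; lines join the points of 1 gene. The shared dip at WT replicate 2, clear at the left, is smaller at the right, where the genes part from each other.

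Scaling narrowed the spread. The coefficient of variation (CV, the SD over the 6 libraries as a percentage of the mean) was 12.9% for Gad1 as deposited and 4.55% after scaling, and 13.7% and 5.27% for Slc32a1. It went the same way for Pvalb, with 8.83% and 5.61%, for Kit, with 13.1% and 7.70%, and for Tfap2b, with 10.5% and 6.98%. The median over the 6 members tested was 13.0% as deposited and 6.29% after scaling, beside 12.7% and 7.70% for all genes tested. After scaling, 14.4% of all genes had a smaller CV than Gad1, and 50.1% a smaller CV than Kit, so the members stood in the lower part and near the middle of the range. The largest CV among the 8 was that of Slc6a5, at 13.2% after scaling, with the fewest estimated reads.

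**Figure D3:**
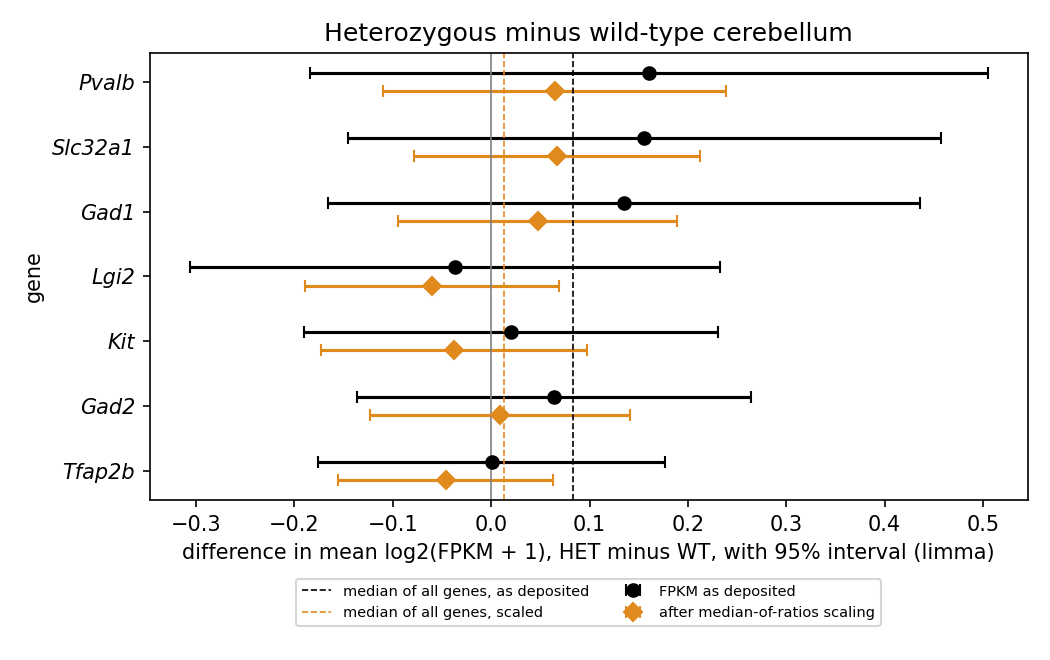
Difference in mean log2(FPKM + 1), HET minus WT (horizontal axis), with 95% intervals from limma for the 7 genes that could be fitted, as deposited (black) and after scaling (orange), with the median of all genes tested as dashed lines; Lgi2 is without HET replicate 2. All 14 intervals include 0, and after scaling they reach from -0.19 to 0.24.

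The 95% intervals limit how large a change in log2(FPKM + 1) the data leave room for. Adding 1 to the FPKM shrinks log2 differences of genes near or under 1 FPKM, so for them the bounds are not fold changes. With 0.1 added instead, the difference was 0.10 for Gad2 and 0.063 for Slc6a5, against 0.064 and 0.011 with 1 added. As deposited, the lowest bound among the 7 fitted members was -0.31, for Lgi2, and the highest 0.50, for Pvalb, on the log2 scale. In the fit over all genes, limma gave the spread of genes of like level a weight of 54.4 degrees of freedom. The gene's own libraries gave 4. In the fit that held Lgi2, on its 5 known libraries, the weight was 55.3. After scaling that weight was 3.56 degrees of freedom. The lowest bound was then -0.19, for Lgi2, and the highest 0.24, for Pvalb. A p past the threshold was not reached, and this does not show that levels were equal.

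Ratios of 2 genes within a library do not depend on how the library was scaled, and 8 such ratios were compared. Gad2 over Gad1 was 0.1365, 0.145 and 0.159 in HET replicates 1, 2 and 3, against 0.148, 0.151 and 0.153 in WT replicates 1, 2 and 3, so the WT values lay within the HET range. Slc32a1 over Gad1 was 1.01 ± 0.04 in HET and 0.999 ± 0.029 in WT libraries (SD, n = 3 each). The ratio of the 2 transporter genes, Slc6a5 over Slc32a1, was 0.00883 ± 0.00098 in HET and 0.00902 ± 0.00081 in WT libraries (SD, n = 3 each). The glycine transporter gene thus stood at 0.00770 to 0.00988 of the vesicular one over the 6 libraries, in units that allow for length.

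Gad1 and Pvalb, which Purkinje cells also express, were set over Calb1, a calcium buffer gene of those cells. These ratios therefore do not tell interneurons from Purkinje cells. Gad1 over Calb1 was 0.321 ± 0.008 in HET and 0.318 ± 0.011 in WT libraries (SD, n = 3 each), a log2 difference of 0.013 (two-sided exact permutation p = 0.7, adjusted over the 8 ratios p = 0.8). Pvalb over Calb1 was 1.41 ± 0.08 in HET and 1.39 ± 0.11 in WT libraries (SD, n = 3 each; exact permutation p = 0.8). Lgi2 over Slc6a5, both used as Golgi cell markers, was 31.9 ± 4.9 in 2 HET and 33.1 ± 4.3 in 3 WT libraries (SD; exact permutation p = 0.8, where the smallest possible with 2 against 3 libraries is 0.2).

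The 2 lowest p-values among the ratios belonged to Tfap2b and Kit against Gad1. Tfap2b over Gad1 was 0.1105, 0.0963 and 0.1115 in HET replicates 1, 2 and 3, against 0.1163, 0.1192 and 0.1152 in WT replicates 1, 2 and 3. The groups did not overlap, as was so for 8.42% of the 6357 other genes tested when divided by Gad1. The log2 difference was -0.14, in 3 of 3 HET libraries below all WT libraries (exact permutation p = 0.1, the smallest possible, adjusted over the 8 ratios p = 0.8), and -0.074 without HET replicate 2. Kit over Gad1 was 0.161 ± 0.009 in HET and 0.174 ± 0.007 in WT libraries (SD, n = 3 each), a log2 difference of -0.11 (exact permutation p = 0.2, adjusted p = 0.8), and its groups overlapped. None of the 8 ratios passed.

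**Figure D4:**
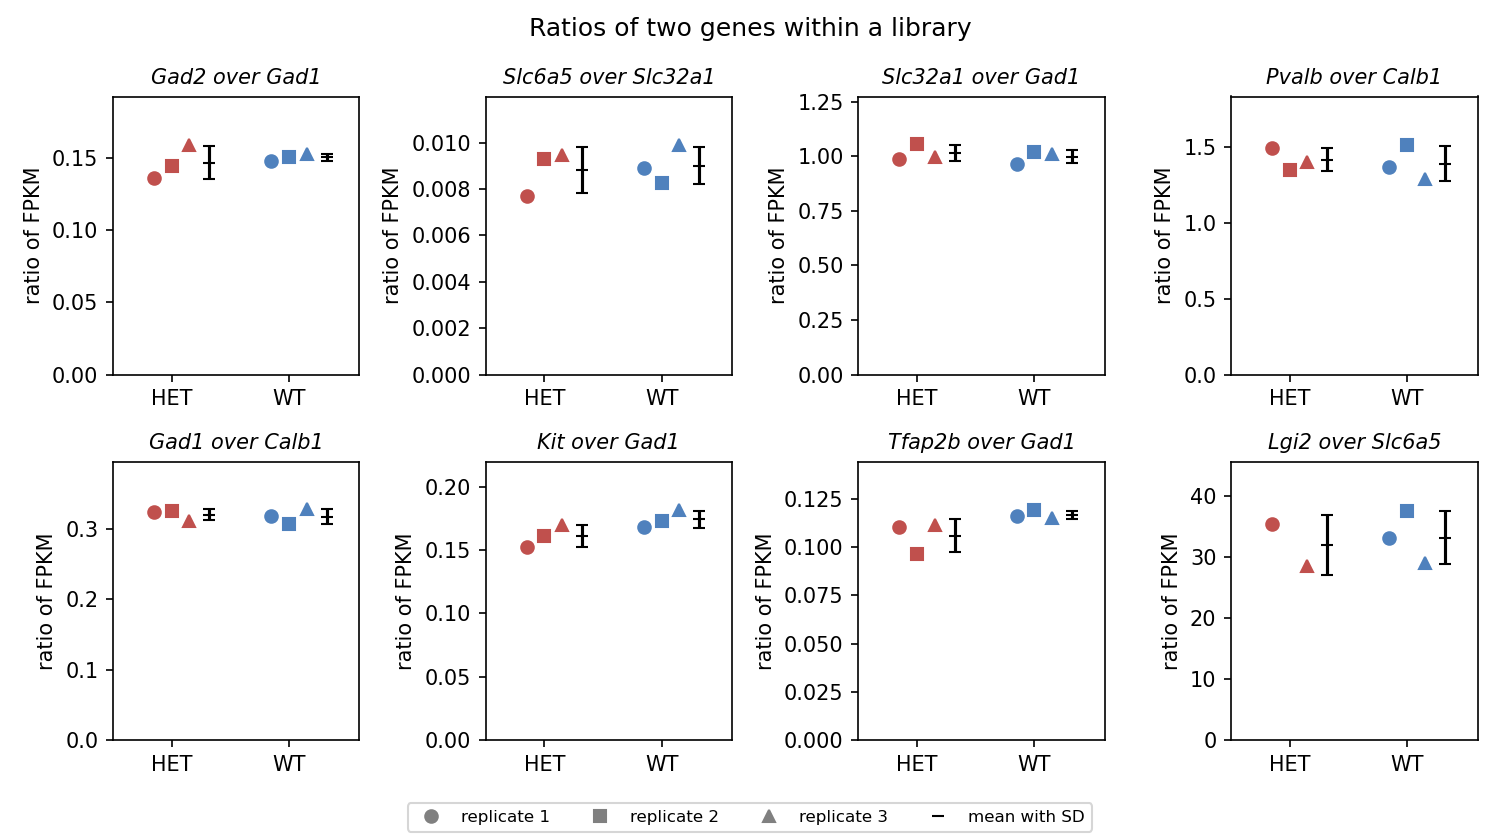
Ratio of the FPKM of 2 genes within each library (vertical axis, from 0) for 8 pairs, HET left of WT, a symbol for each replicate and the mean with its SD at the right of each group. Only for Tfap2b over Gad1 do the 3 HET points, at most 0.1115, lie below the 3 WT points, at least 0.1152.

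How closely other genes kept their ratio to Gad1 was then described by the CV of that ratio over the 6 libraries, a measure chosen after the values were seen. Over the 6357 other genes tested the median was 9.24%. The 5 other members tested were all under it, with 3.09% for Slc32a1, 5.22% for Gad2, 5.95% for Kit, 7.26% for Tfap2b and 8.23% for Pvalb. Of 23 genes that make, move or sense GABA and glycine, 18 were under it (median 6.01%), among them Abat, which encodes GABA transaminase (3.63%). Slc32a1 and Gad2 are counted in both lists.

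Purkinje cell markers also kept close to Gad1, with 13 of 14 under the median of all genes (median 6.54%). Arhgef33 (2.36%) and Calb1 (2.70%) lay nearest. Astrocyte markers had 8 of 9 under it (median 7.34%), oligodendrocyte markers 1 of 7 (median 10.4%) and granule cell markers 1 of 13 (median 13.7%), with Fat2, a granule cell cadherin gene, at 22.3%. These are descriptions over 6 libraries that share depth and scaling, and genes with few reads have larger CVs from counting alone.

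**Figure D5:**
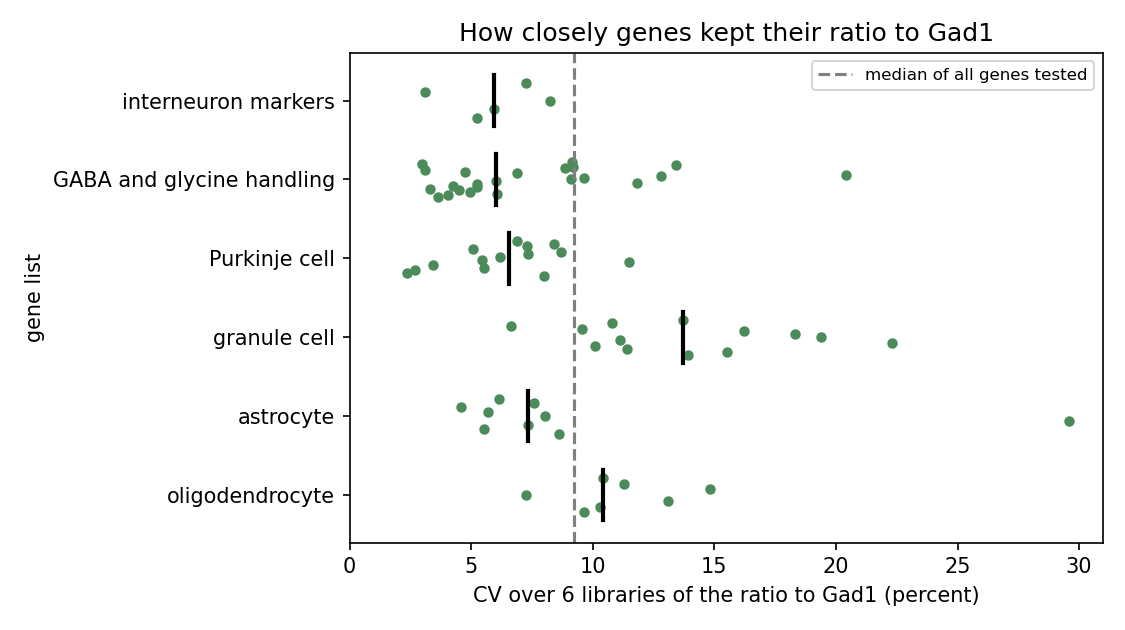
CV over the 6 libraries of the ratio to Gad1 (horizontal axis, percent) for the tested genes of 6 lists (1 point per gene, a black bar at the median of each list), with the median of all genes tested, 9.24%, as a dashed line. Interneuron, GABA, Purkinje and astrocyte genes lie mostly left of the line. Oligodendrocyte genes lie mostly right of it, as do 12 of the 13 granule cell genes.

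Other genes of the same pathways were compared in the same fit, from lists drawn up with earlier results of these data known. Of 34 genes of GABA and glycine handling, 24 were tested and 0 passed in either direction; 23 were higher and 1 lower in HET as deposited (median 0.10), against 16 higher and 8 lower after scaling (median 0.033). The 3 smallest p-values were those of Shmt2, an enzyme gene of serine and glycine exchange (0.23, SE 0.14), Slc38a3, a glutamine transporter gene (0.20, SE 0.14), and Glul, which encodes the glutamine synthetase of astroglia (0.25, SE 0.19), each with a limma adjusted p of 0.899. Glul stood at 111, 128 and 90.0 FPKM in HET replicates 1, 2 and 3, against 109.5, 79.3 and 86.7 FPKM in WT replicates 1, 2 and 3, and overlapped. Slc6a9, the glycine transporter gene of glia, had 1.63, 2.27 and 1.65 FPKM in HET replicates 1, 2 and 3, against 2.04, 1.34 and 1.65 FPKM in WT replicates 1, 2 and 3, above Slc6a5 in all 6 libraries.

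Further interneuron genes were split in direction. Of 24, 10 were tested and 0 passed; 1 had an unadjusted p under 0.05 in limma. In HET 5 had higher means and 5 lower ones, and after scaling 2 and 8 (median -0.0030 as deposited and -0.091 after scaling). Sst, the somatostatin gene of some Golgi cells, had the smallest p. It stood at 1.32, 1.40 and 2.01 FPKM in HET replicates 1, 2 and 3, against 1.504, 0.501 and 0.774 FPKM in WT replicates 1, 2 and 3, with overlap (limma adjusted p = 0.0995, and 0.765 after scaling). Npy (0.14, SE 0.10) and Nos1, which encodes neuronal nitric oxide synthase (-0.056, SE 0.093), came next, with a limma adjusted p of 0.899 each. Lhx1, a homeobox gene of Purkinje cells and other GABAergic neurons, had 2.28, 2.24 and 2.59 FPKM in HET replicates 1, 2 and 3, against 2.48, 2.06 and 2.81 FPKM in WT replicates 1, 2 and 3. The embryonic determinant Ptf1a was at 0 in 4 of 6 libraries and at most at 0.0238 FPKM.

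For Kit signalling, 5 of 17 genes were tested and 0 passed, 5 with a higher mean in HET as deposited and 2 after scaling. Kitl had 1.98, 2.47 and 2.10 FPKM in HET replicates 1, 2 and 3, against 2.45, 1.57 and 2.23 FPKM in WT replicates 1, 2 and 3, which differed by 0.055 on the log2 scale (SE 0.12, limma adjusted p = 0.923). The adaptor gene Grb2 (0.12, SE 0.10) and the phosphatase gene Ptpn11 (0.089, SE 0.12) had the smallest p (limma adjusted p = 0.899 each). Of 7 genes for Lgi proteins and their ADAM receptors, 5 were tested and 0 passed, 4 higher and 1 lower in HET as deposited, 2 and 3 after scaling. Lgi3 was the most abundant, at 12.5 to 14.9 FPKM in HET and 11.9 to 12.9 FPKM in WT libraries (limma adjusted p = 0.899); Lgi4 had a log2 difference of 0.16 (SE 0.14) and the receptor gene Adam11 one of -0.11 (SE 0.13), both at a limma adjusted p of 0.899.

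Of 9 genes of the AP-2 family and its partners, 3 were tested and 0 passed, 2 higher and 1 lower in HET as deposited, 0 and 3 after scaling. Tfap2b was the family member with the highest level: Tfap2a reached at most 0.0980 FPKM, Tfap2c and Tfap2d at most 0.0060 FPKM, and Tfap2e was listed at 0 in all 6 libraries. The coactivator genes Cited2 (-0.087, SE 0.17) and Cited4 (0.018, SE 0.12) had limma adjusted p of 0.914 and 0.972. Of 11 calcium buffer genes, 8 were tested and 0 passed, all 8 with a higher mean in HET as deposited and 7 after scaling (medians 0.16 and 0.067). Calb2, the calretinin gene of granule cells, had 9.43, 14.8 and 13.1 FPKM in HET replicates 1, 2 and 3, against 12.6, 7.19 and 11.4 FPKM in WT replicates 1, 2 and 3 (limma adjusted p = 0.899). S100b, an astroglial calcium sensor gene (0.22, SE 0.18), and Necab3 (0.12, SE 0.10) came next, at a limma adjusted p of 0.899 each.

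Genes of other sources of the members' RNA were low, or present in both groups. Forebrain interneuron genes (Dlx1, Lhx6, Vip and 5 more) summed to at most 0.0316 FPKM in HET and 0.0246 FPKM in WT libraries, 4 of the 8 being at 0 throughout. Mast cells and melanocytes also carry Kit. Their 8 markers summed to 0.141 to 0.256 FPKM in HET and 0.0610 to 0.265 FPKM in WT libraries, with Mlana at 0 throughout, against 1.28 to 1.82 FPKM for Kit. For the brainstem, rich in Slc6a5, 12 listed genes summed to 0.336 to 0.499 FPKM in HET and 0.190 to 0.511 FPKM in WT libraries. WT replicate 2, lowest in Slc6a5, was also lowest in that sum, as it was for 78.4% of all genes tested. Most of the sum was Th, at 0.124 FPKM in WT replicate 2 and 0.395 FPKM in HET replicate 2, so the sum largely follows that gene. Hoxa2 of the same list was not lowest in WT replicate 2, at 0.0617 FPKM against 0 FPKM in HET replicate 3. Its highest library was WT replicate 1, at 0.131 FPKM. Slc17a6, a gene of excitatory nuclear neurons, was lowest in WT replicate 2. It had 0.333, 0.525 and 0.561 FPKM in HET replicates 1, 2 and 3, against 0.509, 0.167 and 0.355 FPKM in WT replicates 1, 2 and 3. The part of brainstem or nuclear tissue in the values of Slc6a5 was not tested. Cerebellar identity was plain. Purkinje markers summed to 747 to 771 FPKM in HET and 558 to 780 FPKM in WT libraries. Of that sum, Aldoc alone made 368 to 404 FPKM in HET and 280 to 401 FPKM in WT libraries. Granule cell markers summed to 723 to 746 FPKM in HET and 659 to 761 FPKM in WT libraries. Of 14 Purkinje and 13 granule cell markers tested, 0 passed. The same held for the 9 astrocyte, 7 oligodendrocyte, 5 choroid plexus and 3 nuclear or brush cell markers tested in limma, of which 0, 2, 3 and 1 had an unadjusted p under 0.05.

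Among all genes tested, those with a scaled profile most like that of a member were found by the root mean square (RMS) difference of log2 values over the 6 libraries, after each gene's mean was subtracted. Nearest to Gad1 were Cep76 (0.020), Hspa13 (0.020) and Arhgef33 (0.021), where the profile of Gad1 itself had an RMS of 0.056. Nearest to Pvalb were Ssu72 (0.018), Sybu (0.019) and Polr2j (0.020), and to Slc32a1 Cndp2 (0.019) and Eps15 (0.022). Nearest to Gad2 were Pcdhac2 (0.011), 2900097C17Rik (0.016) and Rab2b (0.018), and to Kit Ttbk2 (0.011), Tnks1bp1 (0.012) and Syt7 (0.016). Nearest to Tfap2b were Cul3 (0.0070), Yy1 (0.0094) and Zfp869 (0.012), and to Lgi2, over 5 libraries, Ftsj3 (0.0069), Ap2a2 (0.0071) and Bbs1 (0.0076). No member was among the 3 genes nearest to another member.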

How the data were processed

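RNA-seq was done on 3 HET and 3 WT libraries of cerebellum. Total RNA was extracted on RNeasy columns and made into stranded total RNA libraries, per the labels' protocols. What the authors deposited is FPKM per gene, 1 library per file, from Cufflinks after TopHat2 and Bowtie alignment to mm10, with mitochondrial and ribosomal sequences removed, per the labels' protocols. The authors used Cuffdiff 2.1.1 for their own comparison, per the submitters' processing notes, and that is not used here. Not given in the sources used here: the annotation release and strand setting.

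FPKM is not a count, so no count test was run. The 6358 genes that averaged 1 FPKM or more and had no date cell were tested on log2(FPKM + 1) with limma 3.58.1 in R 4.3.3 (intensity trend, Benjamini-Hochberg over all genes, adjusted p under 0.05). Lgi2 was fitted in the same way with its 5 known libraries. The test was checked on simulated data. Single values were compared by two-sided exact permutation over libraries. Size factors came from genes above 0 in every library. Depths came from the steps of low FPKM values of genes with 1 transcript of at least 1000 bases, at a tolerance of 1%; read numbers used the longest RefSeq transcript and are rough, with counting errors that leave out all but sampling. Other steps and plots used scipy 1.17.1, numpy 2.4.6, matplotlib 3.10.9 and pandas 2.3.3 under Python 3.11.15.

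The members and lists were chosen with earlier results of these data known. Named genes are the members, the 3 smallest p-values of each other list, and the 3 nearest profiles among tested genes with a range at or above 0.5 times the member's. In the cell type lists, given as counts and sums, the 3 smallest p-values belonged to Aldoc, Slc1a6 and Gng13 (Purkinje), Gabrd, Calb2 and Grin2c (granule), Gdf10, S100b and Hopx (astrocyte), Mal, Mog and Mobp (oligodendrocyte), Kcne2, Sostdc1 and Kcnj13 (choroid plexus) and Eomes, Spp1 and Nefh (nuclei and brush cells); Slc6a9, Abat, Lhx1, Ptf1a, Fat2, Arhgef33, Slc17a6, the other AP-2 genes and the single markers of forebrain, mast and melanocyte lists were named after their values were seen. A few genes that this rule or the lists would name are not reported here. Replicate numbers of the titles were not taken as pairs of libraries across groups.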

Additional observations from a re-analysis of the deposited data

How the results depend on the processing

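No member fitted in limma passed under any alternative. Of 110 member values recomputed, 89 kept their direction and 21 turned. Median-of-ratios scaling turned Kit (-0.038) and Tfap2b (-0.046), as did quantile normalization (-0.031 and -0.033). With 1 library left out at a time, log2 differences ranged from 0.095 to 0.24 for Pvalb, -0.0048 to 0.22 for Gad1, -0.023 to 0.12 for Gad2, 0.030 to 0.22 for Slc32a1, -0.0038 to 0.023 for Slc6a5, -0.077 to 0.076 for Kit, -0.071 to 0.047 for Tfap2b and -0.11 to 0.010 for Lgi2. Without both HET replicate 2 and WT replicate 2 they were -0.060 for Gad1, -0.054 for Gad2, -0.053 for Slc32a1, -0.015 for Slc6a5, -0.12 for Kit and -0.067 for Tfap2b. In that setting Pvalb stayed higher in HET, at 0.082, and Lgi2 was at -0.11. Lgi2 turned to 0.0088 at its lower and 0.12 at its upper bound, alternatives chosen after seeing the data. Slc6a5 is under the minimum of the other fits and has no value with quantile normalization, a minimum of 0.5 FPKM or limma without the trend; the Lgi2 value already leaves out HET replicate 2.

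Of 63 ratio values, 52 kept their direction. Left-out libraries gave log2 ratio differences of -0.098 to 0.014 for Gad2 over Gad1, -0.092 to 0.063 for Slc6a5 over Slc32a1, -0.0081 to 0.040 for Slc32a1 over Gad1, -0.025 to 0.091 for Pvalb over Calb1, -0.012 to 0.038 for Gad1 over Calb1, -0.15 to -0.074 for Kit over Gad1, -0.18 to -0.074 for Tfap2b over Gad1 and -0.21 to 0.10 for Lgi2 over Slc6a5. With the replicate block Lgi2 over Slc6a5 was 0.036.

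Over all genes, 5 passed. The count was 0 with scaling, quantile normalization, a minimum of 0.5 FPKM or no trend (337, 344, 230 and 203 at an unadjusted p under 0.05 in limma), 1 with no filter, 67 without both replicates 2, and 5 to 62 with 1 library left out (19, 17 and 42 without HET replicates 1, 2 and 3, and 62, 5 and 16 without WT replicates 1, 2 and 3). The cause was not tested. With the replicate number as a block it was 13, and 0 of the 6 members tested passed. Same-numbered libraries deviated with correlations of -0.28, -0.52 and 0.14 across genes, and 0 of 3 HET libraries correlated best with their own number. For HET replicate 3 this was close, at 0.145 with WT replicate 2 and 0.140 with WT replicate 3. The correlations used values as deposited, in which WT replicate 2 was low as a whole. They therefore cannot decide whether the numbers pair libraries. Slc6a5 had the fewest estimated reads, and those read numbers are rough.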
